A study of Mus musculus with 20 samples.

Results

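Levels of the mRNA of 10 chemokines were followed in the gastrocnemius, the main muscle of the calf, of 20 old mice. The chemokines were given as a list of symbols (Ccl2, Ccl6, Ccl7, Ccl8, Ccl9, Cxcl9, Cxcl10, Cxcl12, Cxcl14 and Cx3cl1), and all 10 were found by their Ensembl identifiers among the 55401 genes of the count matrix. All mice were C57BL/6 of 24 months. The treated mice (10) drank water with HK (Haenkenium), an extract of the plant Salvia haenkei, at 0.5 mg per kg per day from the age of 20 months, and the untreated mice (10) received no extract. There were 5 males and 5 females on each side, and the labels place 8 mice in experimental batch 1 (2 of each treatment and sex) and 12 in experimental batch 2 (3 of each). Some mice were bought already old and others were bred in house, and the source of a given mouse is not stated, so that it cannot be told apart from the other differences between mice. Young mice are not in the matrix, so no value here is a change with age. The methods trace the batches to 2 separate sequencing experiments and report that these differed in RNA levels. The treatment label says HK for all 10 treated mice, but the titles of the 5 treated females carry another prefix (HF) than those of the 5 treated males (HK).

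Chemokines are small secreted proteins that draw leukocytes along a gradient by way of receptors on the cell surface. Some are made on demand in inflammation and others are made steadily by stromal cells to hold cells in place, and atypical receptors take them up without signalling. In skeletal muscle they bring monocytes and macrophages to damaged fibres, and their levels are followed in aging as part of low-grade inflammation.

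RNA was depleted of ribosomal RNA and sequenced, and the values are counts of reads per gene for each mouse. Total counts per mouse were between 13900180 and 30469644 (median 17016047), with a median of 20950853 in batch 1 and 15766065.5 in batch 2. Levels are given as CPM, the usual count relative to library size, here with the sizes scaled by TMM, a method that sets the bulk of genes equal between mice. The fibre markers checked the tissue: all 9 (Acta1, Ckm, Myh4, Myh1, Myh2, Myh7, Tnnt3, Tnnc2 and Ryr1) were counted in every mouse, and their summed level was between 130110 and 176800 CPM. Myh4, the myosin of the fastest fibres, had the most CPM of them, with a median of 59646 CPM.

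All 10 chemokines passed the filter on low counts, so under that rule none was too low to measure. The filter asked for 0.588 CPM in at least 5 mice, and Ccl2, Ccl7 and Ccl8 met it through batch 2 alone: 9, 6 and 9 of 12 mice of batch 2 were over that level against 0, 0 and 1 of 8 in batch 1. Depth differed widely among them all the same. Cxcl12 had 26829 counts over the 20 mice, Cxcl14 11178, Ccl6 3240, Ccl9 2318 and Cx3cl1 1366, and each of these 5 had at least 11 counts in every mouse. Cxcl10 had 565 counts in all, Ccl2 441, Ccl8 433, Ccl7 355 and Cxcl9 242. These 5 were thinly counted: fewer than 10 counts were found for Ccl7 in 14 of 20 mice, for Ccl2, Ccl8 and Cxcl9 in 7 each, and for Cxcl10 in 2. Ccl2 and Ccl7 were at 0 in 1 mouse, HK male 1.

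Compared per kilobase of exon, Cxcl14 stood highest, with a median of 15.6 CPM per kb, followed by Cxcl12 at 8.70 CPM per kb. The step between them exceeded the spread between mice, and Cxcl14 was above Cxcl12 on this scale in 16 of 20 mice. This rank rests on the length used, the union of all exons, which was 1.83 kb for Cxcl14 and 8.18 kb for Cxcl12. A single transcript can be shorter than the union. In CPM without the length Cxcl12 was the higher, with a median of 71.1 against 28.5 for Cxcl14. Ccl6 came next at 4.46 CPM per kb, without a step from Cxcl12 beyond the spread. Ccl6 was above Ccl9 (1.78 CPM per kb) in 20 of 20 mice. Below them the neighbours in the order did not differ beyond their spread: Ccl8 at 1.38, Cx3cl1 at 0.892, Cxcl10 at 0.640, Ccl7 at 0.523, Ccl2 at 0.501 and Cxcl9 at 0.200 CPM per kb. The order also depended on the batch. In batch 1 the medians of Cxcl14 and Cxcl12 were 11.8 and 9.57 CPM per kb and that of Ccl6 was 0.946, while in batch 2 Ccl6 (9.05 CPM per kb) was above Cxcl12 (8.48) and under Cxcl14 (20.1).

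**Figure D1:**
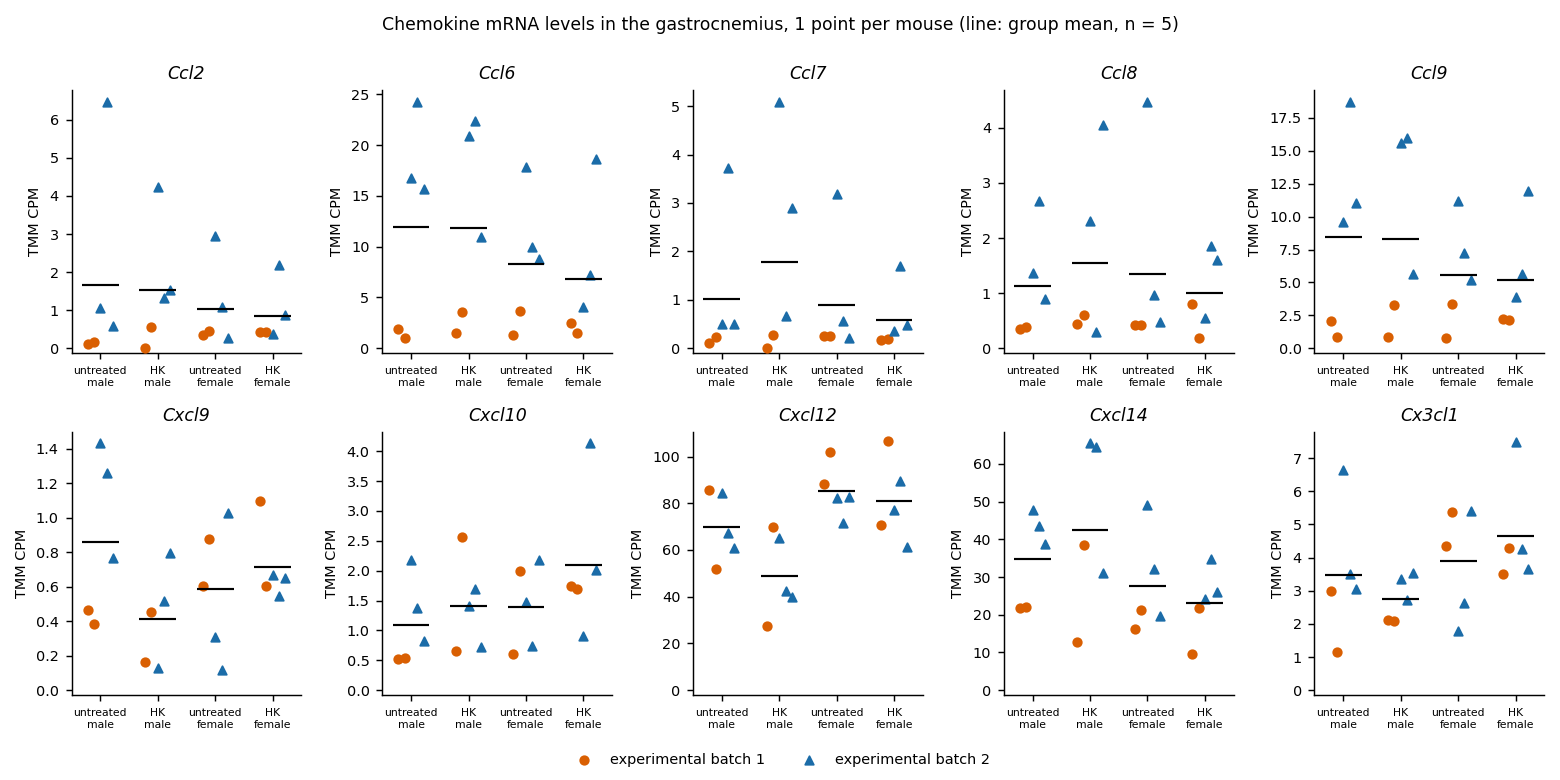
TMM-scaled CPM of the 10 chemokines in the gastrocnemius (y axis), 1 point per mouse, in the 4 groups of treatment and sex (x axis, 5 mice each), with a line at the group mean; circles are batch 1 and triangles batch 2. HK-treated and untreated mice overlap for every chemokine, while Ccl6 was at most 3.66 CPM in batch 1 and at least 4.07 CPM in batch 2.

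The genes lie in clusters. On chromosome 11 of GRCm38 (GENCODE M21) are Ccl2 (ENSMUSG00000035385, chr11:82035571-82037453), Ccl7 (ENSMUSG00000035373, chr11:82045712-82047525) and Ccl8 (ENSMUSG00000009185, chr11:82115185-82116799), on the plus strand, with 8.26 kb between Ccl2 and Ccl7 and 67.7 kb between Ccl7 and Ccl8. Some 1460 kb farther on, Ccl9 (ENSMUSG00000019122, chr11:83572919-83578636) and Ccl6 (ENSMUSG00000018927, chr11:83587882-83593087) lie 9.25 kb apart on the minus strand. Cxcl9 (ENSMUSG00000029417, chr5:92321347-92328079) and Cxcl10 (ENSMUSG00000034855, chr5:92346638-92348889) are neighbours on chromosome 5, 18.6 kb apart and both on the minus strand. The other 3 stand alone: Cxcl12 (ENSMUSG00000061353) at chr6:117168535-117181367, Cx3cl1 (ENSMUSG00000031778) at chr8:94772009-94782427 and Cxcl14 (ENSMUSG00000021508) at chr13:56288643-56296551. Exons of Cxcl10 overlap exons of Art3 on the opposite strand. Art3 had 64352 counts against 565 for Cxcl10, and since the use of strand in counting is not given, counts of Cxcl10 that came from Art3 cannot be told apart. Art3 itself was between 141 and 212 CPM.

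The promoters of Ccl6 and Ccl9 are shown because these neighbours moved together most closely, as described further on. RefSeq promoters (GRCm38.p6, 250 bases before to 50 after the start site) were found for 8 of the 10 chemokines, all but Ccl2 and Ccl7. Among the 28 pairs of these 8, Ccl6 and Ccl9 had the longest run of identical bases, 13 (gccctccacttcc), which 3 of 32851 promoters hold. Capitals mark every run of at least 10 bases that both promoters share: Ccl6 is at chr11:83593038-83593337 and Ccl9 at chr11:83578587-83578886, both on the minus strand and written 5′ to 3′.
Ccl6: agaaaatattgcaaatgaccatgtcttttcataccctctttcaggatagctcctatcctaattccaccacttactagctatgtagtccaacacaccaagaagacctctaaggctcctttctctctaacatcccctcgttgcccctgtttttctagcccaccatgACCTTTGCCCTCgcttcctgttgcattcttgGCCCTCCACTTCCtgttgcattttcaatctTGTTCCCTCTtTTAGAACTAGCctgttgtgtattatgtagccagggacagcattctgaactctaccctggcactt
Ccl9: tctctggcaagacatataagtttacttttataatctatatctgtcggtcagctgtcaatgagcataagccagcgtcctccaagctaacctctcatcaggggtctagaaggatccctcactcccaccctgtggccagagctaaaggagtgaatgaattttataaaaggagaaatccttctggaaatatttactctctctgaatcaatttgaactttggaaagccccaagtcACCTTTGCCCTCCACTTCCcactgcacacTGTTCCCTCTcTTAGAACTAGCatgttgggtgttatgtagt
The shared runs cover 46 bases of the Ccl6 promoter and 40 of that of Ccl9, and follow each other in the same order in both, with the leading 2 runs overlapping in Ccl9.

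Cxcl9 and Cxcl10 are known as genes switched on by interferon, and their promoters are shown for the motifs named in that setting. Capitals mark matches, read on both strands, to GAAANNGAA (the core of the interferon-stimulated response element), TTCNNNGAA (STAT), TGANTCA (AP-1) and the kappaB consensus. Cxcl9 is at chr5:92328030-92328329 and Cxcl10 at chr5:92348840-92349139, both on the minus strand and written 5′ to 3′.
Cxcl9: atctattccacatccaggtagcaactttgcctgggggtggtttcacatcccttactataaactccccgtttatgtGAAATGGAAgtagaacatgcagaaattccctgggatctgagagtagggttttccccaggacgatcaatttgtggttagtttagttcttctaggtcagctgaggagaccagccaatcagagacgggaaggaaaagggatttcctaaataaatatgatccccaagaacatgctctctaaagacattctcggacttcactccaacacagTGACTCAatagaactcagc
Cxcl10: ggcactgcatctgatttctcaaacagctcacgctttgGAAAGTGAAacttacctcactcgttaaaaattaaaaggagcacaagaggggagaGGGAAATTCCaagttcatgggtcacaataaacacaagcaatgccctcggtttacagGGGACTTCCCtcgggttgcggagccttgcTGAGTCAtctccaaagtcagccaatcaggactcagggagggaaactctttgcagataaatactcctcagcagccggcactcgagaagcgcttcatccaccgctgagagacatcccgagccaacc
GAAANNGAA was found in 3 of the 8 promoters (Cxcl9, Cxcl10 and Cxcl14) and in 8.56% of all 32851. TGANTCA was in 3 (Ccl9, Cxcl9 and Cxcl10) against 7.81% of all, the kappaB consensus in 2 (Ccl9 and Cxcl10) against 4.51%, and TTCNNNGAA in 1 (Cxcl14) against 8.3%. TATAAA was in 4 of the 8 (13.6% of all) and CCAAT in 2 (37.4% of all), and these are not in capitals. A match describes the letters and does not show that a factor binds.

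The question of the study's main comparison is whether HK changed the muscle RNA of old mice. No chemokine was called higher or lower in HK-treated mice: 0 of 10 at an adjusted p under 0.05, in a comparison where 0% of the 13626 genes tested were called (quasi-likelihood test of edgeR, with sex and batch in the model). At an unadjusted p under 0.05 there were 379 genes higher and 456 lower over all genes and 0 of the 10 chemokines. limma voom called 0 genes and DESeq2's Wald test called 6 higher and 1 lower. With no filter on low counts 247 genes were called higher and 255 lower of 30096, Cxcl12 among the lower, as described further on. Of the chemokines, 4 had fold changes above 0 and 6 below, and their median was -0.03 on the log2 scale (0.00238 over all genes tested). In bulk tissue, fewer cells of a type and less RNA per cell cannot be told apart, for these and the later results.

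Males and females differed for 1 chemokine: Cxcl12 was lower in males, 1 of 10, where 7.33% of all genes tested were called lower in males. That share is near the background, and 0 of 10 were called higher in males, where 8.79% of all genes tested were (1, Cxcl14, at an unadjusted p under 0.05, also called by DESeq2's Wald test, and 0 by limma voom). With no filter on low counts, where 1383 genes were called higher and 1401 lower of 30096, more passed: Ccl6 (edgeR adjusted p 0.000121), Ccl7 (0.0288), Ccl9 (0.00177) and Cxcl14 (2.28e-12) as higher and Cx3cl1 (0.00465) as lower in males. Their fold changes stayed close to those of the filtered fit, but each SE was smaller. For Cxcl14 the SE was 0.076 against 0.20 and for Ccl6 0.10 against 0.28. The reason was not tested, so these calls add little to the filtered fit. Between the experimental batches, a comparison added after the counts were seen, Ccl6, Ccl9 and Cxcl14 were called higher in batch 2, where 18.2% of all genes tested were called higher, and 0 of 10 were called lower, where 19% of all genes tested were (0 at an unadjusted p under 0.05, and 0 by limma voom or DESeq2's Wald test). Ccl2, Ccl7 and Ccl8 were called higher as well, but as they passed the filter through batch 2 alone, a higher level there was part of how they came to be tested. For this comparison, therefore, no count of chemokines called higher and no median over them is given. For Ccl6 and Ccl9 the batches did not overlap at all, with every mouse of batch 2 above every mouse of batch 1, as held for 1.06% of all genes tested (145 genes). The calls of Ccl6, Ccl9 and Cxcl14 were kept in each of the 20 fits that left out 1 mouse.

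**Figure D2:**
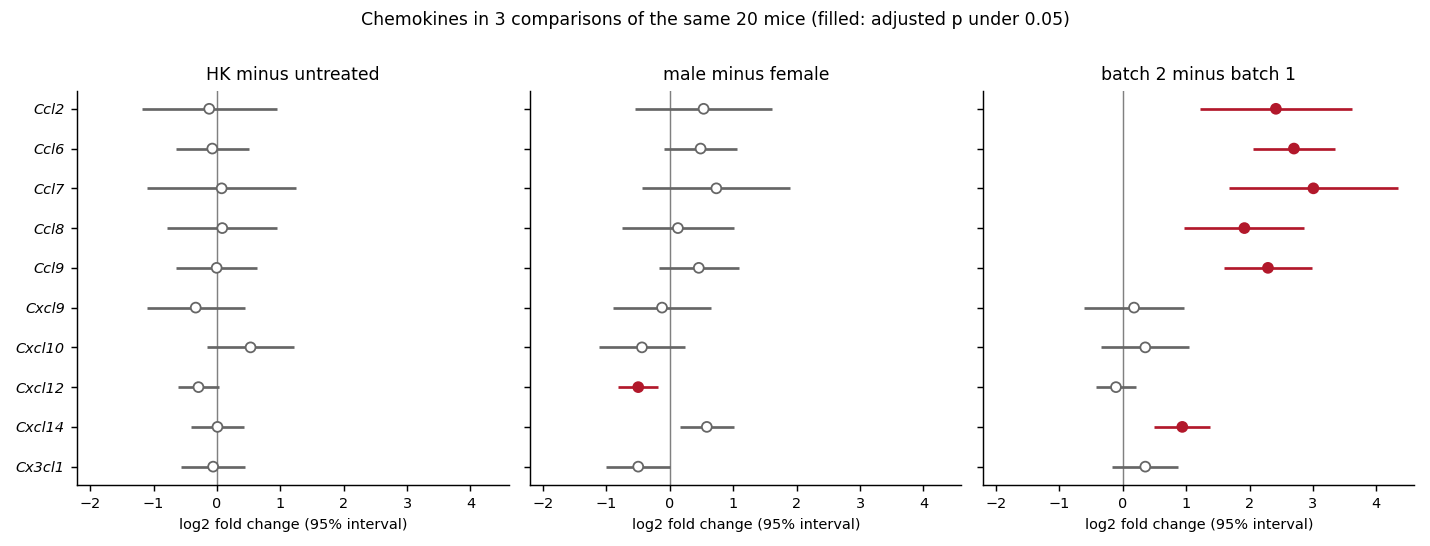
Log2 fold changes (x axis) of the 10 chemokines (y axis) with 95% intervals in 3 comparisons of the same 20 mice, filled red where the adjusted p was under 0.05. The intervals for HK all include 0, and Cxcl12 is filled between the sexes at -0.50. Between the batches Cxcl14 is filled at 0.94, Ccl9 at 2.29 and Ccl6 at 2.70. Ccl2, Ccl7 and Ccl8 are filled there too, but passed the filter on low counts through batch 2 alone.

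Ccl2, Ccl7 and Ccl8 belong to the monocyte chemoattractant proteins, and Ccl2 and Ccl7 call monocytes out of the blood through the receptor Ccr2. Ccl2 was between 0 and 4.24 CPM in HK-treated mice (median 0.726) and between 0.117 and 6.46 CPM in untreated mice (median 0.516). Ccl7 was between 0 and 5.08 CPM with HK (median 0.419) and between 0.117 and 3.72 CPM without it (median 0.373). Ccl8 was between 0.181 and 4.05 CPM with HK (median 0.704) and between 0.350 and 4.47 CPM without it (median 0.686). The ranges overlapped almost fully, and in each treatment a few mice stood several-fold above the rest. The log2 fold changes with HK were -0.12 for Ccl2 (SE 0.51), 0.07 for Ccl7 (SE 0.56) and 0.08 for Ccl8 (SE 0.42), with a 95% interval of -1.10 to 1.25 for Ccl7, the widest of the 10.

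The few high mice were the same for the 3 genes in part. Untreated male 4 had the highest Ccl2 (6.46 CPM) with 3.72 CPM of Ccl7, HK male 3 the highest Ccl7 (5.08 CPM) with 4.24 CPM of Ccl2, and untreated female 3 the highest Ccl8 (4.47 CPM) with 3.18 CPM of Ccl7. All 3 mice belong to batch 2. In batch 1 Ccl2 was between 0 and 0.566 CPM (median 0.386) and in batch 2 between 0.273 and 6.46 CPM (median 1.21). The batches overlapped, with 10 of 12 mice of batch 2 above the highest of batch 1, and the log2 fold change was 2.41 (SE 0.57, edgeR adjusted p 0.00277). Ccl7 was between 0 and 0.264 CPM in batch 1 (median 0.207) and between 0.205 and 5.08 CPM in batch 2 (median 0.618). For this gene 11 of 12 mice of batch 2 were above all of batch 1, at a fitted log2 fold change of 3.01 (SE 0.64, edgeR adjusted p 0.00126), which is imprecise because every mouse of batch 1 had 0 to 7 counts. Ccl8 was between 0.181 and 0.804 CPM in batch 1 (median 0.420) and between 0.295 and 4.47 CPM in batch 2 (median 1.48). It was higher than in any mouse of batch 1 in 9 of 12, at a log2 fold change of 1.92 (SE 0.45, edgeR adjusted p 0.00272). As these 3 genes passed the filter through batch 2 alone, their tests between batches support no difference by themselves. In fewer mice some of the calls were lost: the Ccl2 difference was 1.65 in females alone (adjusted p 0.101), 2.18 in HK-treated mice alone (0.0631) and 2.69 in untreated mice alone (0.0562), and that of Ccl8 was 1.76 in females alone (0.098) and 1.69 in HK-treated mice alone (0.0961), while Ccl7 failed the filter, and so was not fitted, in females alone and in untreated mice alone. Over the alternatives besides leaving out a mouse, the adjusted p was between 1.54e-21 and 0.101 for Ccl2 and between 3.96e-15 and 0.098 for Ccl8. Between the sexes the fold changes were 0.53 for Ccl2, 0.73 for Ccl7 and 0.13 for Ccl8, none past the threshold.

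Ccl6 and Ccl9 are made by myeloid cells in the mouse and act through Ccr1. In HK-treated mice Ccl6 was between 1.51 and 22.4 CPM (median 5.63) and in untreated mice between 1.004 and 24.2 CPM (median 9.39). Ccl9 was between 0.819 and 15.98 CPM with HK (median 4.77) and between 0.814 and 18.7 CPM without it (median 6.21). HK and untreated mice overlapped. The log2 fold change with HK was -0.07 for Ccl6 (SE 0.28, 95% interval -0.65 to 0.51, adjusted p 0.976), and for Ccl9 its 95% interval was -0.65 to 0.64 (SE 0.31, adjusted p 0.999).

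By batch, Ccl6 was between 1.004 and 3.66 CPM in the 8 mice of batch 1 (median 1.70) and between 4.07 and 24.2 CPM in the 12 of batch 2 (median 16.2). Ccl9 was between 0.814 and 3.37 CPM in batch 1 (median 2.08) and between 3.89 and 18.7 CPM in batch 2 (median 10.3). No mouse crossed from one range to the other for either gene. The log2 fold change was 2.70 for Ccl6 (SE 0.31, edgeR adjusted p 4.23e-06) and 2.29 for Ccl9 (SE 0.33, edgeR adjusted p 4.99e-05), and both calls held under every alternative that could fit the batches. Within batch 2, HK-treated mice were between 4.07 and 22.4 CPM of Ccl6 (median 14.8) and untreated mice between 8.82 and 24.2 CPM (median 16.2). The 2 treatments overlapped there as well. Male and female mice overlapped too, at log2 fold changes of 0.48 for Ccl6 (SE 0.28, adjusted p 0.255) and 0.46 for Ccl9 (SE 0.30, adjusted p 0.328). In batch 1 alone these were -0.15 and -0.23 (edgeR adjusted p 0.867 and 0.82) and in batch 2 alone 0.74 and 0.76 (0.174 and 0.161), so the direction was not the same in both batches.

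Macrophage markers moved with the batch in the same direction. All 13 of 13 (Adgre1, Cd68, Csf1r, Mrc1, Cd163, Itgam, Aif1, Fcgr1, Cd14, Lyz2, C1qa, C1qb and Tyrobp) were called higher in batch 2, with a median log2 fold change of 1.90, though Aif1 and Fcgr1 passed the filter through batch 2 alone. The calls of Aif1 and Fcgr1 support no difference by themselves, and the count and the median include them. The summed level of the 13 was between 21.4 and 75.0 CPM in batch 1 (median 45.0) and between 67.7 and 297 CPM in batch 2 (median 155). Lyz2 was the most abundant, at a median of 35.8 CPM, and no marker was at 0 in any mouse. Their part in the batch difference of Ccl6, Ccl9 and Cxcl14 was not tested, nor was their part in the levels of Ccl2, Ccl7 and Ccl8. The 8 markers of fibro-adipogenic progenitors, the connective tissue cells between fibres, were also all called higher in batch 2 (median log2 fold change 0.82). Summed, these were between 323 and 987 CPM in batch 1 (median 656) and between 676 and 2046 CPM in batch 2 (median 1147), with Gsn the most abundant and no marker at 0. Neutrophil markers were sparse: 3 of 7 were tested, all called higher in batch 2 and all past the filter through batch 2 alone. A higher level there was part of how they came to be tested, so these calls support no difference by themselves. The summed level of the 7 was 0.181 to 0.832 CPM in batch 1 and 0.450 to 13.3 CPM in batch 2. Csf3r was the most abundant, and Elane was at 0 in all 20 mice. Other lists moved in part. Of the satellite cell markers tested 4 of 5 were higher in batch 2 with 2 called (median 0.34), at sums of 46.8 to 66.9 CPM in batch 1 (median 54.8) and 62.5 to 161 CPM in batch 2 (median 89.4), with Sdc4 the most abundant. Of the endothelial markers 7 of 8 were higher with 3 called (0.30), at medians of 247 and 260 CPM (Flt1 the most abundant), of those of smooth muscle and pericytes 6 of 6 with 2 called (0.27), at 272 and 289 CPM (Rgs5), of the adipocyte markers 4 of 5 with 1 called (0.65), at 110 and 150 CPM (Fabp4, with Lep at 0 in 1 mouse), and of the fibre markers 6 of 9 with 2 called (0.05). Of the Schwann cell markers 1 was higher and 4 were lower in batch 2, with 0 called (-0.18). The part of these lists in the chemokine differences was not tested either. Depth moved the other way, with fewer counts per mouse in batch 2, and its part was not tested.

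**Figure D3:**
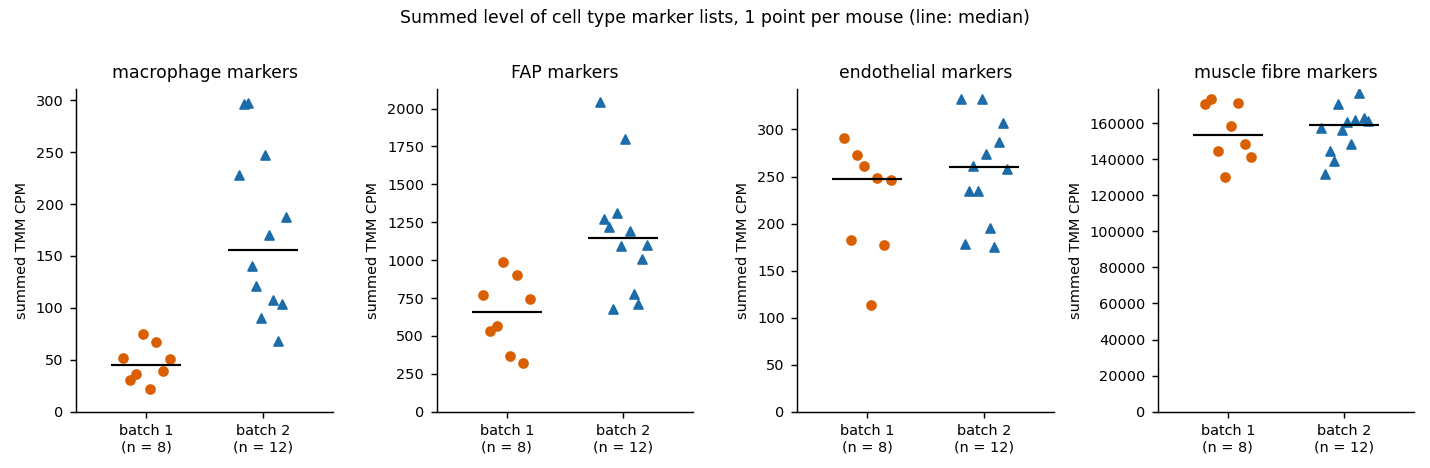
Summed TMM-scaled CPM of 4 marker lists (y axis) in each mouse of batch 1 (8 circles) and batch 2 (12 triangles), with a line at the median. The macrophage sum had a median of 45.0 CPM in batch 1 and 155 CPM in batch 2, while the fibre sum had medians of 153440 and 158870 CPM.

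Cxcl9 and Cxcl10, induced by interferon gamma, attract T and NK cells through Cxcr3. Cxcl9 was between 0.129 and 1.09 CPM in HK-treated mice (median 0.575) and between 0.115 and 1.43 CPM in untreated mice (median 0.683). Cxcl10 was between 0.655 and 4.14 CPM with HK (median 1.69) and between 0.525 and 2.19 CPM without it (median 1.10). For Cxcl10, 7 of 10 HK-treated mice were above the untreated median and 2 above every untreated mouse, yet most mice of both sides shared 1 range. Its log2 fold change of 0.53 was the largest of the 10 with HK (SE 0.33, 95% interval -0.15 to 1.21) and did not pass the test (p 0.119, edgeR adjusted p 0.823). Cxcl9 had a log2 fold change of -0.33 (SE 0.37, adjusted p 0.891).

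The sexes were read apart for Cxcl9 because its interaction had the lowest p of the 10. In males its level was 0.467, 0.386, 1.43, 1.26 and 0.765 CPM in the 5 untreated mice and 0.164, 0.453, 0.129, 0.515 and 0.796 CPM in the 5 with HK. In females it was 0.602, 0.874, 0.306, 0.115 and 1.03 CPM in untreated mice and 1.09, 0.605, 0.668, 0.545 and 0.650 CPM with HK. Untreated males 3 and 4 were the highest of all mice, and the treatments overlapped in both sexes. The interaction of HK with sex was -1.39 for Cxcl9 (SE 0.70, p 0.0608, edgeR adjusted p 0.998), so a difference between the sexes was not shown.  None of the 10 chemokines passed this test (0 of 10, with 0% of 13800 genes called, 250 higher and 233 lower at an unadjusted p under 0.05, and 0 by limma voom or DESeq2's Wald test). With no filter on low counts 1 did, Cxcl14 (0.57, edgeR adjusted p 0.0222), at an SE of 0.15 against 0.40 in the filtered fit. The interaction of HK with batch gave the same count of 0 of 10 (0% of 13800 called, 217 higher and 199 lower at an unadjusted p under 0.05, and 0 by limma voom or DESeq2's Wald test). Between batches Cxcl9 and Cxcl10 had log2 fold changes of 0.18 and 0.35 and were not called. The genes of T and NK cells, which these chemokines attract, were near the floor, with 0 of 8 past the filter and a summed level of 0.0605 to 1.64 CPM per mouse.

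Cxcl12, a chemokine made steadily by stromal and vascular cells, holds cells that carry Cxcr4. In untreated males it was 85.6, 51.7, 84.5, 67.2 and 60.8 CPM, and in HK-treated males 27.5, 69.7, 65.1, 42.6 and 40.0 CPM. Untreated females had 88.1, 102, 82.3, 71.4 and 82.8 CPM, and HK-treated females 70.8, 107, 77.2, 89.5 and 61.4 CPM. HK males 1, 4 and 5 were the lowest of all mice and HK female 2 was the highest, so both extremes were treated mice. With HK the mean was 65.04 CPM ± 23.7 (SD, n = 10) and without it 77.6 CPM ± 14.8 (SD, n = 10). Of the HK-treated mice 2 of 10 were above the untreated median and 3 below every untreated mouse. The log2 fold change of -0.29 (SE 0.15, 95% interval -0.61 to 0.03) was not called (p 0.0692, edgeR adjusted p 0.795). With no filter on low counts it passed (-0.28, edgeR adjusted p 0.00581). The fold change was close to that of the filtered fit, while the SE was 0.07 against 0.15, for a reason that was not tested. Over the 11 alternatives besides leaving out a mouse the adjusted p was between 0.00581 and 1.

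In females Cxcl12 had a mean of 83.2 CPM ± 13.98 (SD, n = 10) and in males 59.5 CPM ± 19.0 (SD, n = 10). The sexes overlapped, with 5 of 10 males below the lowest female and 2 above the female median. The log2 fold change of males against females was -0.50 (SE 0.15, 95% interval -0.82 to -0.18, edgeR adjusted p 0.0296). The adjusted p was past the threshold by a small margin, and the call was lost without untreated male 2 (-0.46, adjusted p 0.0559), untreated female 2 (-0.48, 0.0519), HK female 2 (-0.44, 0.0547) or HK female 4 (-0.46, 0.0571), the range over the 20 mice being 0.0163 to 0.0571. It was also lost with no covariates (-0.48, 0.0591), in batch 1 alone (-0.66, 0.163), in batch 2 alone (-0.39, 0.128), in HK-treated mice alone (-0.72, 0.125) and in untreated mice alone (-0.30, 0.287), with the same direction each time. Cxcl12 did not differ detectably between batches, at a log2 fold change of -0.11 (SE 0.15, adjusted p 0.607).

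Cxcl14 is made without stimulation in many stromal and epithelial tissues, and its receptor is not settled. It was between 9.52 and 65.7 CPM with HK (median 28.5) and between 16.3 and 49.2 CPM without it (median 27.1). HK-treated mice held both the lowest and the highest level, and the medians were close. The log2 fold change was 0.01 (SE 0.20, 95% interval -0.42 to 0.43, adjusted p 0.997). In batch 1 it was between 9.52 and 38.6 CPM (median 21.5) and in batch 2 between 19.8 and 65.7 CPM (median 36.8). The batches overlapped, with 6 of 12 mice of batch 2 above all of batch 1, and the log2 fold change was 0.94 (SE 0.21, edgeR adjusted p 0.00202). In females alone it was 0.87 (adjusted p 0.0613) and in HK-treated mice alone 0.98 (adjusted p 0.0791), and over the alternatives besides leaving out a mouse the adjusted p was between 3.51e-30 and 0.0791. Males were between 12.8 and 65.7 CPM (median 38.7) and females between 9.52 and 49.2 CPM (median 22.9), at a log2 fold change of 0.58 (SE 0.20, edgeR adjusted p 0.0564). This difference fell short of the threshold and passed it without untreated female 2 (adjusted p 0.0486), untreated female 3 (0.0237), HK male 1 (0.0317), HK male 5 (0.0486) or HK female 2 (0.0488), in a range of 0.0237 to 0.113 over the 20 mice, and with DESeq2's Wald test (0.0279).

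Cx3cl1 sits on the membrane as an adhesion molecule for cells with Cx3cr1 and is released when the proteases Adam10 and Adam17 cut it. It was between 2.07 and 7.47 CPM with HK (median 3.53) and between 1.16 and 6.65 CPM without it (median 3.28). These ranges overlapped, at a log2 fold change of -0.06 (SE 0.24, 95% interval -0.56 to 0.44, adjusted p 0.978). Males were between 1.16 and 6.65 CPM (median 3.02) and females between 1.78 and 7.47 CPM (median 4.27), and 1 of 10 males was above the female median. The log2 fold change of -0.50 (SE 0.24, edgeR adjusted p 0.173) was not called. It passed without untreated male 3 (-0.66, adjusted p 0.0474), the only such mouse among the 20 (range 0.0474 to 0.297), and in batch 1 alone (-1.04, adjusted p 0.0285), but not in batch 2 alone (-0.12, adjusted p 0.859), in HK-treated mice alone (-0.76, 0.0595) or in untreated mice alone (-0.22, 0.81). Between batches the log2 fold change was 0.35 (SE 0.25, adjusted p 0.273).

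Most receptors of the family were too low to test in this muscle. Of the 18 chemokine receptors listed, 5 passed the filter, 0 were called with HK (Ccr2 at an unadjusted p under 0.05), and 0 had a fold change above 0 and 5 below. Ccr2, the receptor of Ccl2 and Ccl7, was between 1.004 and 12.4 CPM, with a log2 fold change with HK of -0.77 (SE 0.33, p 0.0291, edgeR adjusted p 0.795). Ccr1, the receptor of Ccl6 and Ccl9, was between 0 and 2.08 CPM, with -0.47 for HK (SE 0.39) and 2.44 between batches (SE 0.44, edgeR adjusted p 0.000306). Ccr1 was over the level of the filter in 0 of 8 mice of batch 1 and 6 of 12 of batch 2, so it passed through batch 2 alone. Cx3cr1 was between 0.0546 and 3.45 CPM, with -0.95 for HK (SE 0.49, adjusted p 0.795), and was called higher in males (1.52, SE 0.50, edgeR adjusted p 0.0442) and in batch 2 (1.42, SE 0.53, edgeR adjusted p 0.0393), having passed the filter through 5 males of batch 2 alone. Cxcr4, the receptor of Cxcl12, had -0.15 for HK (SE 0.29) and 0.71 between batches (adjusted p 0.0691). Cxcr3, the receptor of Cxcl9 and Cxcl10, failed the filter with 35 counts over 20 mice, and Ccr3 with 6.

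Of the 5 atypical receptors, which clear chemokines, 4 passed the filter, 2 with fold changes above 0 and 2 below with HK and 0 called. Ackr3, which takes up Cxcl12, was between 6.66 and 29.0 CPM, with a log2 fold change of -0.01 for HK and 0.90 between batches (SE 0.18, edgeR adjusted p 0.000816). Ackr1 had 0.04 for HK and 0.99 between batches (SE 0.24, edgeR adjusted p 0.0029), and Ackr2 had -0.36 for HK and 0.91 between batches (adjusted p 0.0641). Both batch calls among them were higher in batch 2, as were those of Ccl6, Ccl9 and Cxcl14. Of the 5 proteases that cut chemokines all passed the filter, and 0 were called with HK, where Mmp14 had -0.38 (p 0.0277, edgeR adjusted p 0.795) and Mmp2 -0.37 (adjusted p 0.816). Adam10 (-0.24, edgeR adjusted p 0.00808) and Adam17 (-0.27, edgeR adjusted p 0.0387), which free Cx3cl1 from the membrane, were called lower in males. Among 17 chemokine inducers and their transcription factors, 13 passed the filter and 0 were called with HK (6 above 0 and 7 below). Nfkbia, the inhibitor of NF-kappaB and itself one of its targets, had 0.38 (p 0.0142) and the interferon receptor chain Ifnar2 had -0.34 (p 0.0215), each at an edgeR adjusted p of 0.795.

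The chemokines outside the list of 10 gave 0 calls with HK as well. Of 16 other CC chemokines 6 passed the filter, 2 above 0 and 4 below with HK, among them Ccl25 (0.19, adjusted p 0.805) and Ccl27a (-0.09, adjusted p 0.938). Of 12 other CXC and C chemokines 4 passed, 1 above 0 and 3 below, among them Pf4 (-0.38, adjusted p 0.832) and Cxcl16 (-0.37, adjusted p 0.848). Between batches 2 of the first list were called higher (1 of them, Ccl21a, past the filter through batch 2 alone) and 2 lower, and 2 of the second list higher and 0 lower. Markers of cell types gave 0 calls with HK: of 13 macrophage markers 1 had a fold change above 0 and 12 below (median -0.30), and of 8 endothelial markers 0 above and 8 below (-0.25). Those of fibro-adipogenic progenitors (8, median -0.21), of smooth muscle and pericytes (6, -0.27) and of neutrophils (3 tested, -0.52) were all below 0. Of the satellite cell markers tested 1 was above 0 and 4 below (-0.13), of the Schwann cell markers 5 and 0 (0.29), of the adipocyte markers 2 and 3 (-0.03) and of the fibre markers 5 and 4 (0.06). Between the sexes, where Cxcl12 was lower in males, 8 of 8 endothelial markers were lower in males with 0 called (median -0.29). Their sum was between 178 and 332 CPM in females (median 261) and between 114 and 333 CPM in males (median 215), with Flt1 the most abundant and no marker at 0. Other lists were compared between the sexes as well, and 1 of them is left out of the text. Of the adipocyte markers 5 of 5 were lower in males with 4 called (median -1.32), their sum being between 93.2 and 248 CPM in females (median 167) and between 67.4 and 154 CPM in males (median 117), with Fabp4 the most abundant and Lep at 0 in 1 mouse. Of the macrophage markers 12 of 13 were higher in males with 1 called (median 0.58), at sums of 36.4 to 187 CPM in females (median 82.8) and 21.4 to 297 CPM in males (median 139), with Lyz2 the most abundant and no marker at 0. Neutrophil markers were lower in males in 3 of 3 with 1 called, at sums of 0.181 to 13.3 CPM in females (median 2.09) and 0.273 to 2.95 CPM in males (median 0.758), with Csf3r the most abundant and Elane at 0 in every mouse. Of these 3, Csf3r passed the filter within each sex, while S100a8 and S100a9 passed it among females and failed it among males. For S100a8 and S100a9 a lower level in males was thus part of how they came to be tested, and the count supports no difference by itself. Those of smooth muscle and pericytes were lower in males in 5 of 6 with 0 called (-0.13), at medians of 292 CPM in females and 248 CPM in males (Rgs5 the most abundant, no marker at 0). The markers of fibro-adipogenic progenitors were higher in 4 and lower in 4 with 0 called (0.02), those of satellite cells higher in 4 and lower in 1 with 0 called (0.09), and the fibre markers higher in 4 with 3 called and lower in 5 with 2 called (-0.07). The part of these lists in the sex difference of Cxcl12 was not tested.

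From mouse to mouse, the chemokines varied together in a few sets. Pearson's r of log2 CPM over 20 mice, after removal of batch, sex and treatment, was computed for all 45 pairs, with permutation tests of 100000 resamples. The tests shuffled the adjusted levels and made no allowance for the removed terms. Their p-values, here and for the marker lists, therefore tend to be too small, most so in the 8 mice of batch 1. Calls close to the threshold and the counts of calls are to be read with that limit. By r, 12 of 45 pairs were past an adjusted p of 0.05, all 12 positive, and by Spearman's rho 7. The 6 largest are given in full. Ccl6 and Ccl9 had r 0.916 (permutation p 1e-05, the smallest the resamples can give, adjusted 0.000225) and rho 0.916 (permutation p 1e-05, adjusted 0.000225). Mice with much Ccl6 for their batch, sex and treatment had much Ccl9. In batch 1 r was 0.876 (adjusted p 0.0723 by permutation over all pairings of 8 mice). It was 0.930 in batch 2 and 0.902 without the 2 mice farthest from the median. Ccl2 and Ccl7 had r 0.893 (permutation p 1e-05, adjusted 0.000225) and rho 0.892 (permutation p 1e-05, adjusted 0.000225). This pair, 8.26 kb apart on chromosome 11, had r 0.961 in batch 1 (adjusted p 0.067 by permutation over all pairings of 8 mice). Its r was 0.908 in batch 2 and 0.870 without the 2 farthest mice.

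Ccl7 and Ccl8, the next neighbours, had r 0.724 (permutation p 0.00029, adjusted 0.00435) and rho 0.723 (permutation p 0.00046, adjusted 0.0069). In batch 2 r was 0.845 and in batch 1 0.160 (adjusted p 0.734), a difference that was not tested, and it was 0.696 without the 2 farthest mice. Ccl2 and Ccl9 had r 0.634 (permutation p 0.00314, adjusted 0.0312) and rho 0.650 (permutation p 0.00269, adjusted 0.0202), with 0.675 in batch 1 (adjusted p 0.164) and 0.578 in batch 2 (adjusted p 0.193), past the threshold in neither. Without the 2 farthest mice r was 0.516 (adjusted p 0.125), and the pair missed the threshold without untreated male 4 (r 0.583), HK male 1 (r 0.554) or HK female 3 (r 0.576). Ccl2 and Cxcl14 had r 0.621 (permutation p 0.00347, adjusted 0.0312) and rho 0.704 (permutation p 0.00075, adjusted 0.00844), with 0.797 in batch 1, 0.621 in batch 2 and 0.671 without the 2 farthest mice. It missed the threshold in batch 1 alone (adjusted p 0.124) and batch 2 alone (0.168), and without untreated female 3 (r 0.582), untreated female 5 (r 0.556), HK male 1 (r 0.524) or HK male 3 (r 0.578). Cxcl9 and Cx3cl1 had r 0.610 (permutation p 0.00434, adjusted 0.0326) and rho 0.562 (permutation p 0.011, adjusted 0.0573), and r was 0.665 without the 2 farthest mice. In batch 1 r was -0.053 (adjusted p 0.904) and in batch 2 0.643 (adjusted p 0.168), a difference that was not tested, and the pair missed the threshold without untreated male 3 (r 0.529), untreated female 3 (r 0.561) or untreated female 4 (r 0.555). The neighbours Cxcl9 and Cxcl10 had r 0.405 (permutation p 0.0775, adjusted 0.174) and rho 0.389 (permutation p 0.0911, adjusted 0.187), not past the threshold, with 0.616 in batch 1, 0.355 in batch 2 and 0.335 without the 2 farthest mice. The count of 12 pairs was between 5 and 7 without untreated male 4, untreated females 2, 3 or 5, HK males 1, 2 or 3, or HK female 3.

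**Figure D4:**
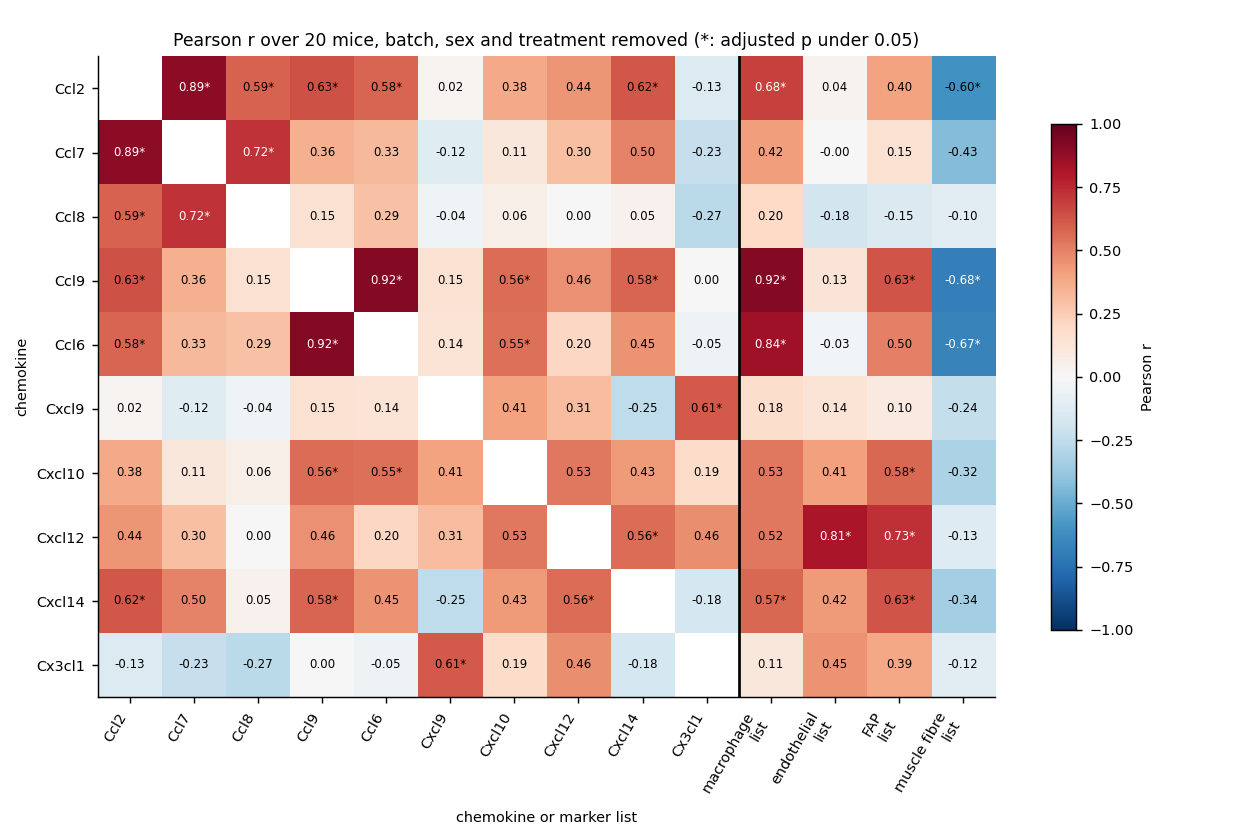
Pearson's r (colour and number) between each of the 10 chemokines (rows) and the others, and the mean standardized level of 4 marker lists (last 4 columns; FAP: fibro-adipogenic progenitor), over 20 mice after removal of batch, sex and treatment, with a star where the adjusted p was under 0.05. The darkest cells are Ccl6 with Ccl9 (0.916), Ccl2 with Ccl7 (0.893) and Ccl9 with macrophage markers (0.916).

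Relations were also computed with the lists of macrophages, endothelium, fibro-adipogenic progenitors and fibres; the list of T and NK cells, chosen with them, had no gene to use, and the other lists were not run. Of these 40 relations, 12 were past an adjusted p of 0.05 by r (9 positive and 3 negative) and 10 by rho. Ccl9 and the macrophage markers had r 0.916 (permutation p 1e-05, adjusted 0.000267) and rho 0.923 (permutation p 1e-05, adjusted 0.0004). The relation was there in batch 1 (r 0.944), in batch 2 (r 0.897), without the 2 farthest mice (r 0.887) and in each of the 20 sets that left out 1 mouse. Ccl6 and the macrophage markers had r 0.844 (permutation p 2e-05, adjusted 0.000267) and rho 0.854 (permutation p 2e-05, adjusted 0.0004). In batch 1 r was 0.770 (adjusted p 0.0919 by permutation over all pairings), in batch 2 0.823 and without the 2 farthest mice 0.785. Ccl2 and the macrophage markers had r 0.682 (permutation p 0.00117, adjusted 0.00737) and rho 0.636 (permutation p 0.00326, adjusted 0.0177), with 0.697 in batch 1, 0.549 in batch 2 and 0.575 (adjusted p 0.0731) without the 2 farthest mice, the call being lost in each of these.

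Cxcl12 and the endothelial markers had r 0.815 (permutation p 2e-05, adjusted 0.000267) and rho 0.708 (permutation p 0.00075, adjusted 0.0075). The relation was there in batch 1 (r 0.943), in batch 2 (r 0.789), without the 2 farthest mice (r 0.781) and in each of the 20 sets that left out 1 mouse. HK male 1 had both the lowest Cxcl12, 27.5 CPM, and the lowest endothelial sum, 114 CPM. This mouse also had the lowest sums of macrophage (21.4 CPM), smooth muscle and pericyte (128 CPM) and adipocyte markers (67.4 CPM), but not of the other lists. Cxcl12 and the markers of fibro-adipogenic progenitors had r 0.727 (permutation p 0.00015, adjusted 0.0015) and rho 0.642 (permutation p 0.00284, adjusted 0.0177), with 0.865 in batch 1, 0.476 in batch 2 and 0.603 (adjusted p 0.0714) without the 2 farthest mice, the call being lost in the last 2 of these. Without removal of batch, sex and treatment r was 0.335 and not past the threshold (adjusted p 0.328). With the macrophage markers Cxcl12 had r 0.524 (permutation p 0.0175, adjusted 0.0539) and rho 0.528 (permutation p 0.0184, adjusted 0.0615), not past the threshold. In batch 1 r was 0.849 (permutation p 0.00888 over all pairings, unadjusted), in batch 2 0.176 and without the 2 farthest mice 0.357. The p of batch 1 tends to be too small, as no allowance was made for the removed terms.

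**Figure D5:**
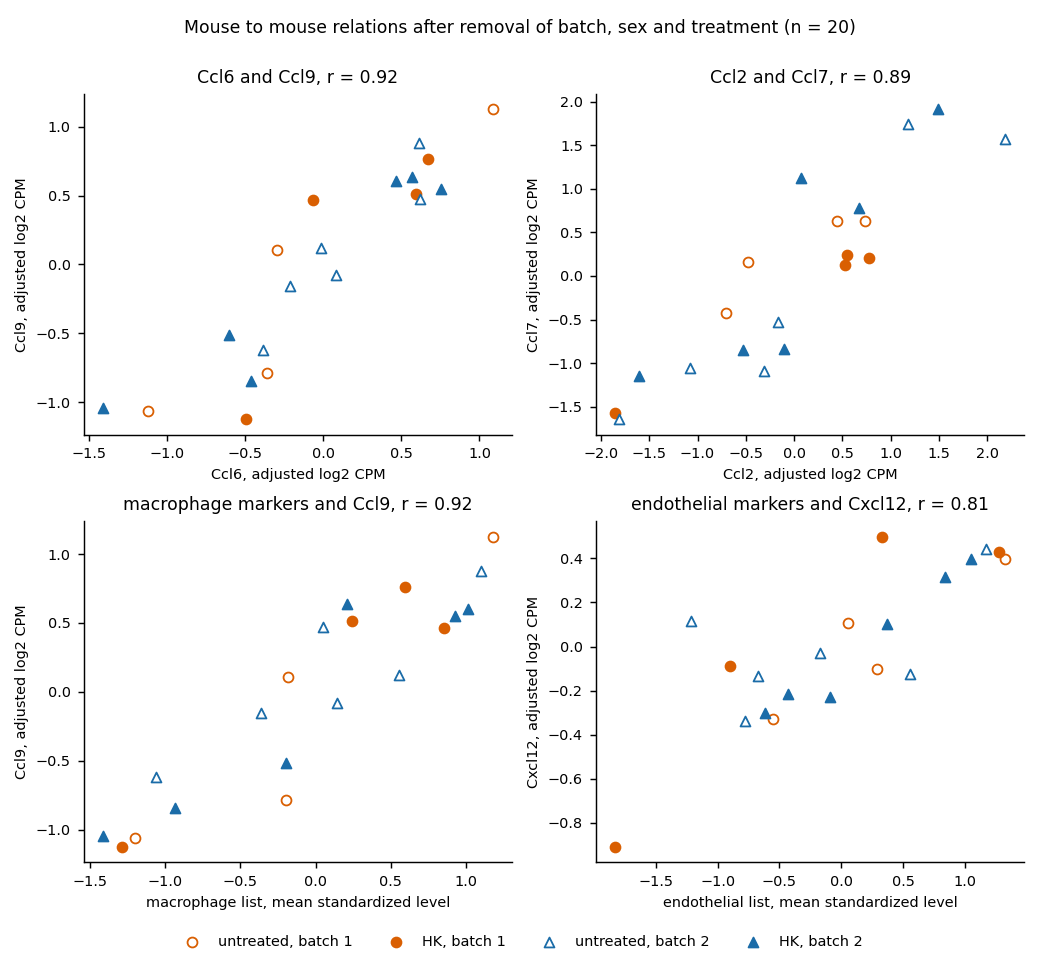
Adjusted log2 CPM in each of the 20 mice, after removal of batch, sex and treatment, of Ccl9 against Ccl6, of Ccl7 against Ccl2, of Ccl9 against the macrophage list and of Cxcl12 against the endothelial list (lists as mean standardized levels); circles are batch 1, triangles batch 2, filled with HK. The points of both batches lie along 1 rising band in each plot, with r of 0.916, 0.893, 0.916 and 0.815.

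With the fibre markers the relations were negative. Ccl9 and the fibre markers had r -0.683 (permutation p 0.00086, adjusted 0.00688) and rho -0.719 (permutation p 0.00053, adjusted 0.00707), with -0.364 in batch 1 (adjusted p 0.504), -0.744 in batch 2 and -0.671 without the 2 farthest mice. Ccl6 had r -0.667 (permutation p 0.00129, adjusted 0.00737) and rho -0.651 (permutation p 0.0024, adjusted 0.0177), with -0.542 in batch 1, -0.582 in batch 2 and -0.581 (adjusted p 0.0731) without the 2 farthest mice, the call being lost in each of these. Ccl2 had r -0.602 (permutation p 0.00491, adjusted 0.0196) and rho -0.599 (permutation p 0.00631, adjusted 0.0254), with -0.183 in batch 1, -0.595 in batch 2 and -0.485 (adjusted p 0.151) without the 2 farthest mice, the call being lost in each of these and without untreated male 4 (r -0.43). Without removal of batch, sex and treatment the 3 were -0.0647, -0.00525 and -0.199 and not past the threshold. The other 4 relations past the threshold were positive. With the markers of fibro-adipogenic progenitors, Ccl9 had r 0.632 (rho 0.626, permutation p 0.00321 and 0.00355, adjusted 0.0146 and 0.0177), and Cxcl14 had r 0.628 (rho 0.594, permutation p 0.00329 and 0.00636, adjusted 0.0146 and 0.0254). In batch 1 r was 0.809 (adjusted p 0.0919, so not past the threshold) and 0.924. Both fell short in batch 2 (r 0.376 and 0.273), without the 2 farthest mice (r 0.503 and 0.486) and without HK male 1 (r 0.553 and 0.530), that of Ccl9 also without untreated female 2 (r 0.562). Cxcl10 with the same list (r 0.576, rho 0.475, permutation p 0.00896 and 0.0356, adjusted 0.0322 and 0.0949) and Cxcl14 with the macrophage list (r 0.572, rho 0.496, permutation p 0.00966 and 0.0272, adjusted 0.0322 and 0.0778) passed by r and not by rho. In batch 1 these were 0.768 and 0.795, in batch 2 0.488 and 0.486, and without the 2 farthest mice 0.480 and 0.479, none of them past the threshold. Without removal of batch, sex and treatment that of Cxcl10 was 0.420 (adjusted p 0.191) and with batch and sex alone removed 0.431 (adjusted p 0.167). Cxcl10 missed the threshold without untreated male 3, untreated female 2, HK males 1, 2 or 5 or HK female 3 (r 0.511 to 0.546), and Cxcl14 without untreated females 2 or 5, HK males 1, 2, 3 or 5 or HK female 2 (r 0.482 to 0.555).

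The genes most like each chemokine were looked up among all 13626 genes tested, by Spearman's rho of the same adjusted levels over the 20 mice, with no test. Ccl9 was most like Mrc1, the mannose receptor of macrophages and 1 of the 13 markers (rho 0.932), and then Ccl6 (0.916). Ccl6 was most like Ccl9 and then Msr1, a scavenger receptor of macrophages (0.896). Ccl2 was most like Ccl7 (0.892) and Mlkl, the effector of necroptosis (0.829), and Ccl7 most like Ccl2 and Tbc1d31 (0.886). Cxcl12 was most like Ets1, a transcription factor of endothelial cells and lymphocytes (0.943), and Adamts10 (0.938). Cxcl14 was most like Cdr2l (0.941) and Irak3 (0.890). For the sparsely counted genes the nearest were Ccl8 with Eef2kmt (0.862) and Xpo1 (0.838), Cxcl9 with Zfp429 (0.798) and Casp6 (0.782), and Cxcl10 with Arpc1a (0.844) and Ces2c (0.832). Cx3cl1 was most like C1qtnf2 (0.811) and Gm19299 (0.806).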

How the data were processed

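The authors aligned the reads (75 cycles) to GRCm38.p6 with STAR 2.6.1c (two-pass), used GENCODE M25 for genes and deposited raw counts per gene, 1 column per mouse. The tool that counted, its strand setting and the handling of reads with several matches are not given. Symbols, positions and exon lengths came from GENCODE M21 (55141 identifiers matched, 260 not). The tests ran in edgeR 4.0.16, DESeq2 1.42.0 and limma 3.58.1 (R 4.3.3), and the correlations, promoters and plots in scipy 1.17.1, numpy 2.4.6, matplotlib 3.10.9 and pandas 2.3.3 (Python 3.11.15).

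All genes were fitted over 20 mice with edgeR's quasi-likelihood test (glmQLFit and glmQLFTest, TMM, filterByExpr), with batch, sex and treatment as terms and Benjamini-Hochberg adjustment over all genes tested, at a threshold of 0.05. Standard errors were derived from the fold change and its statistic. A chemokine was to be called too low to measure if it failed filterByExpr. CPM per kb used the union of exons. Correlations used log2 CPM (prior count 2) after linear removal of batch, sex and treatment. Two-sided permutation tests had 100000 resamples (all pairings in batch 1), adjusted within each family of 45 and 40 relations. The permutations shuffled the adjusted levels and made no allowance for the removed terms. The scripts were tested on simulated data.

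The lists were other chemokines, receptors, atypical receptors, proteases, inducers with their transcription factors, and markers of macrophages, neutrophils, T and NK cells, endothelium, fibro-adipogenic progenitors, smooth muscle and pericytes, satellite cells, Schwann cells, adipocytes and fibres. Named were all 10 chemokines, the receptors known to bind them (1 of these is left out of the text), the 2 genes of each other pathway list with the lowest p with HK, the 2 genes most like each chemokine and at most the 6 largest pairs past the threshold. Adam10, Adam17, Art3 and the pair of Cxcl9 and Cxcl10 fall outside this rule and were chosen after their values were seen. The difference of 1 marker list between the sexes is left out of the text. The chemokines and the lists were chosen with earlier results of these data known, and the comparison of batches and the search of CPM for a mouse far from the others were added after seeing the data.

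Alternatives were limma voom, the Wald test of DESeq2 and its size factors, no low-count filter, models with batch alone or no covariates, blocks by replicate, each batch, sex or treatment alone, and each mouse left out, and for correlations also a prior count of 0.5, no removal of terms and the removal of batch and sex alone. No protein sequences were used, as no table of them was at hand.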

Additional observations from a re-analysis of the deposited data

Results flagged for a closer look

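For each of the 10 chemokines, the 10 HK-treated and the 10 untreated mice were examined for a mouse far from the others, by the gap of the highest or lowest mouse to its neighbour as a share of the range. On log2 CPM after removal of batch, sex and treatment, the gap was past Dixon's 95% limit for 10 mice (0.466) in 0 of these 20 groups. On CPM as printed it was past the limit in 3 of 20: Ccl2 in untreated male 4, the highest of the untreated mice (0.555), Ccl2 in HK male 3, the highest of the HK-treated mice (0.486), and Cx3cl1 in HK female 3, the highest of the HK-treated mice (0.589). The limit's chance rate of about 1 in 20 holds for normally distributed values from the same population. Each group here mixed both batches, so the 3 cannot be read as an excess over chance. All 3 mice belong to batch 2. With the filter on low counts, no chemokine passed the test for a difference of the HK effect between the sexes or between the batches.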

How the results depend on the processing

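With HK against untreated, where 0 genes were called, no filter on low counts gave 502 calls (47 of them of genes that fail the filter), DESeq2's Wald test 7, and leaving out each mouse 0 to 1 (1 without HK female 1). The replicate block (same number and sex as a block) gave 0, and residuals of mice with the same number correlated above 0.1 in 1 of 10 pairs (-0.33 to 0.23). Males against females (2197 calls) gave 1316 in batch 1 alone, 878 in batch 2 alone, 651 in HK-treated mice alone and 489 in untreated mice alone, and batch 2 against batch 1 (5062) gave 1497 in females alone, 1476 in HK-treated mice alone and 2192 in untreated mice alone, with fewer mice in each. With no filter the interactions gave 314 calls (sex) and 225 (batch) against 0. The pairs (12) were 1 in batch 1 alone, 3 in batch 2 alone, 6 without the 2 farthest mice and 5 to 14 with each mouse left out. The marker relations (12) were 5, 4, 4 and 8 to 15. Cxcl9 with Cx3cl1 was near 0 in batch 1 alone (r -0.053). Under DESeq2 size factors, limma voom or DESeq2's Wald test no chemokine was called with HK. For the rest the cause was not tested. Depth limits Ccl2, Ccl7, Ccl8, Cxcl9 and Cxcl10, which had under 10 counts in 2 to 14 mice.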
